A study of Mus musculus with 6 samples.

Results

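AP-1 transcription factors are dimers of basic leucine zipper proteins from the Fos and Jun families, and the 10 genes described here are the Fos family genes Fos, Fosb, Fosl1 and Fosl2, the Jun family genes Jun, Junb and Jund, and their relatives Atf3, Batf and Maff. They were taken by symbol, and all 10 were found among the 19309 genes of the deposited table. All 10 passed the filter on low counts, which left 15109 genes for testing. RNA was sequenced from the cheeks of 3 C57BL/6 mice, 6 to 8 weeks old. In every mouse the shaved right cheek was wiped with acetone and ether for 30 s and then with distilled water for 30 s (the AEW treatment, which models dry skin), while the left cheek was wiped with distilled water for 60 s (vehicle). Wiping was repeated over 12 days, with collection on day 12. Each group holds 3 libraries, 1 per mouse, and the side of the face cannot be told apart from the treatment.

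Fos proteins pair with Jun proteins and bind short DNA elements in gene control regions, and Jun proteins can also pair with one another. Fos, Fosb, Jun and Junb are immediate early genes, switched on rapidly and for a short time by growth factors, stress or tissue handling, whereas Fosl1, Fosl2 and Jund proteins persist for longer. Atf3 is a stress-induced member of the same protein superfamily that often represses transcription, and AP-1 dimers take part in the control of keratinocyte differentiation genes.

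Library totals ran from 18449207 to 19506491 estimated counts. Keratinocyte transcripts were present in every library, with 12 of 12 markers tested and a summed level between 14882 and 22239 normalised counts (CPM, scaled to library size) in vehicle skin and between 23951 and 34370 CPM in AEW skin. 4 of these 12 markers were higher in AEW skin. Skeletal muscle transcripts were also abundant and differed between the groups: 17 of 18 markers were lower in AEW skin, and their summed level ran from 35578 to 49801 CPM in vehicle skin and from 14357 to 19463 CPM in AEW skin. Endothelial markers, 3 of 10 called lower (1 with the mouse as a block), summed to 441 to 607 CPM in vehicle and 337 to 401 CPM in AEW skin. Smooth muscle and pericyte markers, 3 of 8 called lower (2 with the block), summed to 2233 to 2793 CPM in vehicle and 1191 to 1409 CPM in AEW skin. Of all tested genes 4.85% were called higher and 6.8% lower, and 1.99% and 3.89% with the block. The AEW library of mouse 1 stood apart from the other AEW libraries. Its chi-square per degree of freedom against them was 59.83 and 71.53, where theirs was 20.42. Hair markers varied widely among the AEW libraries, at sums of 2068, 44.6 and 678 CPM in mice 1, 2 and 3, against 387 to 420 CPM in vehicle skin. Their median log2 level relative to the vehicle mean was 2.06, -4.05 and 0.58 in these AEW libraries. Without the AEW library of mouse 1 the log2 fold change of Atf3 was -2.04 (adjusted p = 0.00700, edgeR) and that of Fosl2 0.54 (adjusted p = 0.0166). In such bulk tissue, fewer cells of a type and less RNA per cell cannot be told apart. The part of these shifts in the results that follow was not tested.

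AEW skin held Atf3 transcript at 0.256 times and Fosl2 transcript at 1.37 times the vehicle level, and the other 8 members did not pass the test. Thus 1 of 10 members was higher and 1 of 10 was lower at an adjusted p under 0.05 in edgeR's quasi-likelihood test, against a background of 4.85% of all tested genes higher and 6.8% lower. With the mouse as a block, edgeR called 0 members higher and 1 lower, against 1.99% and 3.89% of all genes. In that fit 3 members were higher at an unadjusted p under 0.05, as were 12.9% of all genes. DESeq2 without the block called 3 members higher and 1 lower, against 8.85% and 9.77% of all genes. Fosl1 and Junb had higher values in every AEW library than in any vehicle library without passing the test. The members split evenly about zero, with a log2 fold change above 0 in 5 of 10 and a median of 0.0052, beside a median of 0.014 over all tested genes. Groups did not overlap in 3 members that were higher and 1 that was lower, where 17.4% of all tested genes were separated upward and 19.5% downward.

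**Figure D1:**
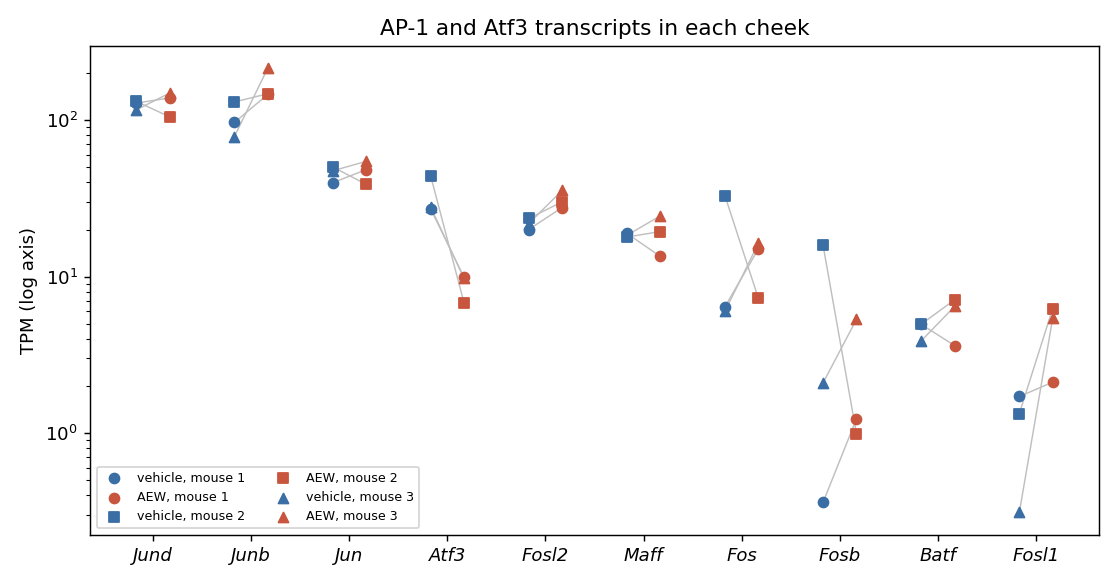
Length-corrected level (TPM, log axis) of each member in the 3 vehicle libraries (blue) and the 3 AEW libraries (red). Grey lines join the cheeks of 1 mouse, marked by symbol. Atf3 lies lower and Fosl1, Fosl2 and Junb lie higher in the AEW cheek of all 3 mice. Of all tested genes, 25.3% were higher and 26.9% lower in all 3 mice by CPM. Fos and Fosb stand highest in the vehicle cheek of mouse 2.

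Jund, Junb and Jun carried most of the Fos and Jun family transcript on the length-corrected TPM scale. Jund, a Jun protein made at a steady level in many cells, stood at 126 ± 8.18 TPM in vehicle skin and 131 ± 23.1 TPM in AEW skin (SD, n = 3 each, as for all means here). Junb stood at 102 ± 26.6 and 170 ± 39.5 TPM, and Jun at 45.9 ± 5.45 and 47.2 ± 7.82 TPM. The middle of the order in vehicle skin was taken by Atf3 at 33.0 ± 9.63 TPM, Fosl2 at 21.8 ± 1.77 TPM, Maff at 18.4 ± 0.51 TPM and Fos at 15.1 ± 15.4 TPM. Fosb at 6.09 ± 8.46 TPM, Batf at 4.60 ± 0.62 TPM and Fosl1 at 1.12 ± 0.72 TPM were lowest. Among neighbours in this order, Jund and Junb, and all pairs from Maff down to Batf, were within the spread of their libraries, while Jun stood below Junb and above Atf3 in each vehicle library. In AEW skin Atf3 moved from the fourth place in every vehicle library to the seventh or eighth, at 8.82 ± 1.75 TPM.

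Atf3 (gene 11910) showed the largest called difference among the members. Its estimated counts were 605, 963 and 599 in the vehicle cheeks of mice 1, 2 and 3, and 222, 158 and 212 in their AEW cheeks. Every AEW library was below every vehicle library, and mouse 2 held both the highest vehicle value and the lowest AEW value. Mean levels were 39.5 ± 10.9 CPM in vehicle and 10.1 ± 1.56 CPM in AEW skin. The fitted log2 fold change, -1.97 (standard error, SE, 0.22; 95% interval -2.48 to -1.45), passed edgeR's test (adjusted p = 0.00774). Within animals the AEW to vehicle ratio was 0.334 for mouse 1 (exact binomial interval of counting error 0.285 to 0.390), 0.159 for mouse 2 (0.134 to 0.189) and 0.329 for mouse 3 (0.280 to 0.386). Dropping any 1 library kept the call, with log2 fold changes from -2.08 to -1.72 and adjusted p from 0.00700 to 0.0328. Dropping both cheeks of mouse 3, in the fit blocked by mouse, ended it: the log2 fold change was then -2.11 (adjusted p = 0.225) and edgeR called 0 genes of the whole table, against 790 higher and 1099 lower at an unadjusted p under 0.05.

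Skeletal muscle markers fell in the same libraries as Atf3. Vehicle skin of mouse 2, which had the highest Atf3 level of the vehicle libraries at 52.0 CPM, had the lowest summed muscle level of them at 35578 CPM. Vehicle skin of mouse 3, with 33.3 CPM of Atf3, had the highest at 49801 CPM. The vehicle library of mouse 2 was also the highest of the 3 for all 12 keratinocyte markers and for 25 of 30 other immediate early genes, where it was for 36.5% of all tested genes. The part of these shifts in the Atf3 level was not tested. With the 18 muscle genes taken out before scaling, the log2 fold change of Atf3 was -1.97 (adjusted p = 0.00774). That setting removes the muscle genes' weight in the library size, not Atf3 transcript from muscle cells, whose share was not tested.

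The Atf3 promoter window is shown because Atf3 is the member with the largest fall. It spans 250 bases before the RefSeq start and 50 from it, on chr1:191183284-191183583 of build GRCm38.p6, minus strand. The set of RefSeq windows used here covered 9 of the 10 members. It held none for Fosl1, which was not searched. Motifs were searched on both strands. The second run of capitals is TTACGTCA, a variant of the cAMP response element that begins 10 bases before the start. The first is a match, read on the other strand, to TGATGNAA, an element shared by C/EBP and ATF proteins, and begins 110 bases before the start. TTACGTCA overlaps a match to TGACG on the other strand.
Atf3: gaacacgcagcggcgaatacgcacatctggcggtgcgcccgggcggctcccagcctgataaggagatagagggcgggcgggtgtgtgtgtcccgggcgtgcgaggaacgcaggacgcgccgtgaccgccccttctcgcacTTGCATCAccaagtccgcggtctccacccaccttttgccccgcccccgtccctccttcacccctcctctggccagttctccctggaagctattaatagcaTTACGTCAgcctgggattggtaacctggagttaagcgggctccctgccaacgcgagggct
Of 32851 mouse promoter windows of the same length, 0.499% held TTACGTCA and 3.97% held TGATGNAA. Among the members' windows, TTACGTCA and TGATGNAA were each found in that of Atf3 alone. The match to letters is a description of this window and does not show that a protein binds there.

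Genes whose pattern over the 6 libraries was most like that of Atf3, among 13280 genes ranked by Pearson correlation of log2 CPM, were Dapl1 (r = 0.997), Lce1m (r = 0.997) and Scin (r = 0.996). Lce1m encodes a late cornified envelope protein, and Scin encodes the actin-severing protein scinderin. Dapl1 stood at 333 ± 32.7 CPM in vehicle and 164 ± 15.9 CPM in AEW skin, Lce1m at 1331 ± 164 and 614 ± 81.5 CPM, and Scin at 90.1 ± 9.84 and 59.7 ± 3.21 CPM. All 3 were highest in the vehicle library of mouse 2 and lowest in the AEW library of mouse 2, as Atf3 was. These correlations rest on 6 libraries in 2 groups and carry no test.

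Fosl2 (gene 14284), which encodes the Fos relative Fra-2, was the member called higher. Its estimated counts were 1346, 1549 and 1418 in vehicle skin and 1870, 2102 and 2330 in AEW skin of mice 1, 2 and 3. All 3 AEW libraries were above all 3 vehicle libraries, with little spread in either group. Mean levels were 78.7 ± 5.07 CPM in vehicle and 108 ± 13.9 CPM in AEW skin, and the AEW cheek held 1.26, 1.32 and 1.53 times the vehicle level in mice 1, 2 and 3. EdgeR estimated the rise at 0.46 in log2 (SE 0.12, 95% interval 0.18 to 0.73) with an adjusted p of 0.0492. Blocking by mouse gave 0.45 in log2 and an adjusted p of 0.0670. Leaving out any library but AEW replicate 1 also ended the call, with adjusted p from 0.0823 to 0.177 over those 5 fits and log2 fold changes from 0.37 to 0.50. Without AEW replicate 1 it was 0.54 (adjusted p = 0.0166).

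The Fosl2 window, on chr5:32136222-32136521 of GRCm38.p6, plus strand, is shown beside that of Atf3 because its gene moved the other way. It has no capitals: none of the letters searched was found in it, which were TGACGTCA (the cAMP response element), TTACGTCA, TGACTCA (the AP-1 element, whose reverse complement is TGAGTCA), TGACATCA (a variant described for Jun), TGATGNAA, the CArG box of serum response factor, and TGACG, the core shared with the first element.
Fosl2: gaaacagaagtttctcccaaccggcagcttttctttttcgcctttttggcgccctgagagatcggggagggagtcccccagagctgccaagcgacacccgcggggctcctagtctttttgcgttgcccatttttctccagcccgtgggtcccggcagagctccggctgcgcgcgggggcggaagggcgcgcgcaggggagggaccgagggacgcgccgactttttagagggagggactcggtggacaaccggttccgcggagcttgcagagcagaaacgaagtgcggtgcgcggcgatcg
Over all 32851 windows the shares were 1.79% for TGACGTCA, 5.2% for TGACTCA, 3.62% for TGACATCA, 1.63% for the CArG box and 20.8% for TGACG.

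The genes most like Fosl2 over the 6 libraries were Piga (r = 1.00 at 2 decimals), Mast3 (r = 0.997) and Ccl20 (r = 0.997). Piga encodes an enzyme of the glycosylphosphatidylinositol anchor, Mast3 a kinase, and Ccl20 a chemokine of keratinocytes. Ccl20 had estimated counts of 15, 28 and 25 in vehicle skin and 63, 177 and 288 in AEW skin, and its log2 fold change of 2.87 (SE 0.58) passed edgeR's test (adjusted p = 0.0286). Piga, at 0.47 in log2, and Mast3, at 0.33, did not pass the test (adjusted p = 0.0732 and 0.0799).

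Fosl1 (gene 14283), which encodes Fra-1, a Fos relative linked to migrating and wounded keratinocytes, had a large estimated fold change and few reads. Its estimated counts were 33, 25 and 6 in vehicle skin and 41, 124 and 101 in AEW skin. The groups did not overlap, but the AEW library of mouse 1 was close to its vehicle library. Means were 1.16 ± 0.75 and 4.59 ± 2.30 CPM. The log2 fold change of 1.97 (SE 0.63, 95% interval 0.49 to 3.45) did not pass edgeR's test (adjusted p = 0.0857). The AEW to vehicle ratio was 1.13 for mouse 1 (0.698 to 1.85, counting error), 4.82 for mouse 2 (3.12 to 7.74) and 15.7 for mouse 3 (6.95 to 43.7). Fosl1 passed the test without AEW replicate 1, with a log2 fold change of 2.32 (adjusted p = 0.0351).

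Junb (gene 16477), an immediate early Jun protein, had estimated counts of 2005, 2654 and 1572 in vehicle skin and 3045, 3182 and 4345 in AEW skin. Its groups did not overlap, and the cheeks of mouse 3 held both the lowest and the highest value of the 6. Means were 113 ± 28.2 and 181 ± 38.6 CPM, a log2 fold change of 0.67 (SE 0.22, 95% interval 0.16 to 1.18), and the difference did not pass the test (adjusted p = 0.0875, edgeR). The ratio was 1.38, 1.17 and 2.57 in mice 1, 2 and 3. Both Fosl1 and Junb passed in DESeq2 (adjusted p = 0.0116 and 0.0160).

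Jun (gene 16476) and Jund (gene 16478) differed little between the groups. Jun had estimated counts of 1445, 1788 and 1662 in vehicle skin and 1759, 1471 and 1928 in AEW skin, and the groups overlapped. Its log2 fold change was -0.019 with a 95% interval from -0.32 to 0.28. Jund had estimated counts of 4214, 4223 and 3678 in vehicle skin and 4566, 3578 and 4759 in AEW skin, with the highest and the lowest value of all 6 in the AEW group. Its log2 fold change was -0.0042 with an interval from -0.29 to 0.29, so differences beyond about a fold of 1.22 in either direction lie outside that interval. With the mouse as a block the interval of Jund was wider, from -0.36 to 0.33 in log2. Both genes were lower in the AEW cheek of mouse 2 and higher in that of mouse 3.

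**Figure D2:**
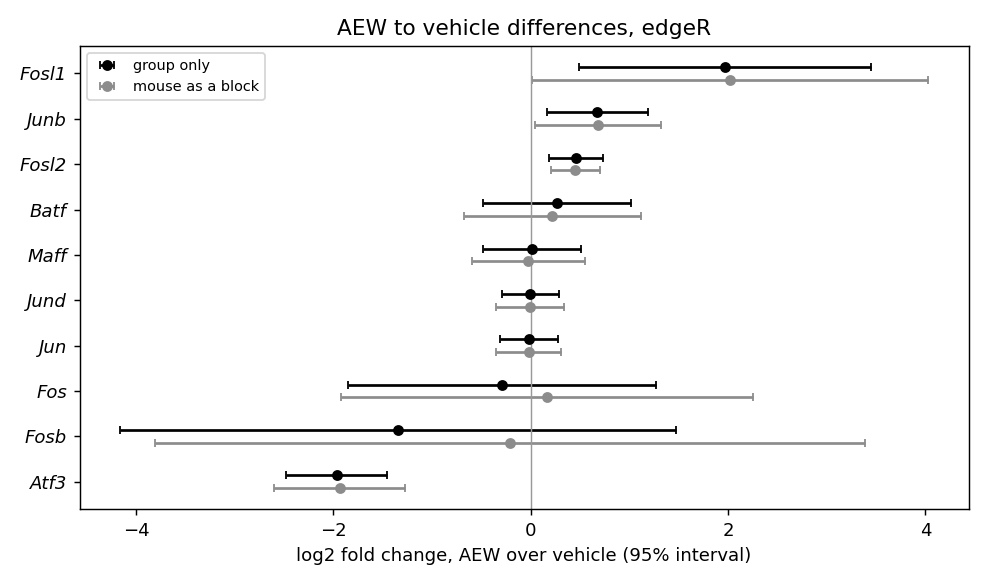
Log2 fold change of each member, AEW over vehicle, with its 95% interval (bars) from edgeR with group as the single term (black) and with the mouse as a block (grey). Atf3 lies wholly below 0, Fosl1, Junb and Fosl2 wholly above it, and Fos and Fosb have the widest intervals.

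The order of Jund and Junb differed between the groups, a pattern noticed after the values were seen. Jund was the member with the highest TPM in all 3 vehicle libraries, and Junb was the highest in all 3 AEW libraries. Junb divided by Jund was 0.751, 0.993 and 0.675 in vehicle skin and 1.05, 1.40 and 1.44 in AEW skin of mice 1, 2 and 3. The log2 ratio was -0.33 ± 0.29 and 0.36 ± 0.25, a difference of 0.69, for which no test is given because it was chosen for this separation. Junb made up 28.8% to 33.9% of the summed Fos and Jun family TPM in vehicle skin and 38.6% to 44.7% in AEW skin, Jund 34.1% to 43.8% and 31.0% to 36.6%. The summed TPM of the 3 Jun genes was 274 ± 36.1 in vehicle skin and 348 ± 64.9 in AEW skin, and that of the 4 Fos genes 44.1 ± 25.5 and 51.0 ± 10.02.

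**Figure D3:**
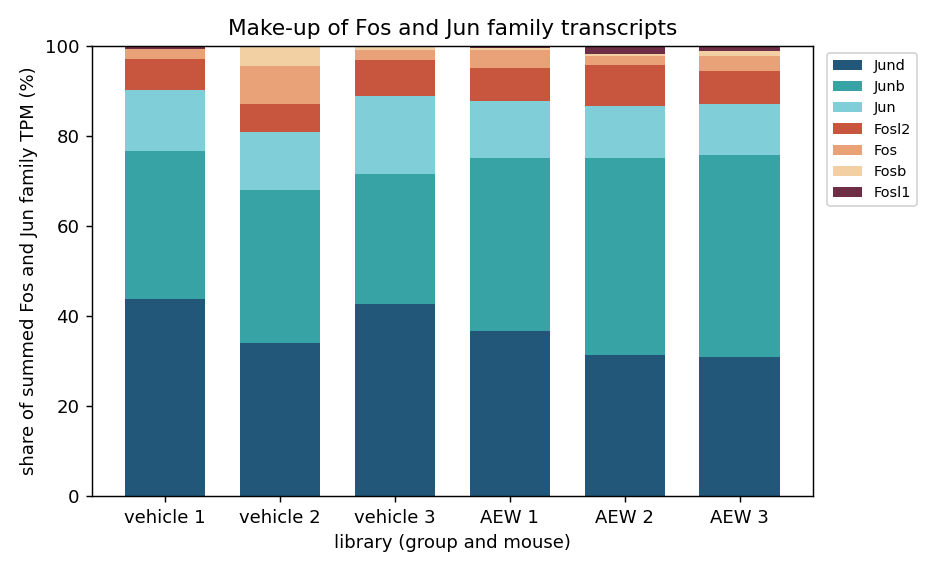
Share of each Fos and Jun family gene in their summed TPM (%), as stacked bars that each add to 100, for the 6 libraries. Junb takes 38.6% to 44.7% in the AEW libraries, and Fos with Fosb takes its widest band in the vehicle library of mouse 2.

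Fos (gene 14281) and Fosb (gene 14282), the immediate early Fos genes, differed widely between mice of the vehicle group. Fos had estimated counts of 153, 766 and 138 in vehicle skin and 359, 180 and 378 in AEW skin. Fosb had 15, 659 and 86 in vehicle skin and 53, 44 and 218 in AEW skin. In both genes the vehicle cheek of mouse 2 was the highest of all 6 libraries, and the groups overlapped. Means were 19.1 ± 19.3 and 15.6 ± 5.40 CPM for Fos and 13.7 ± 19.0 and 5.40 ± 5.08 CPM for Fosb.

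The direction of Fos and Fosb was opposite in mouse 2. The AEW to vehicle ratio of Fos was 2.14 for mouse 1 (1.76 to 2.60, counting error), 0.228 for mouse 2 (0.193 to 0.269) and 2.55 for mouse 3 (2.09 to 3.12). The ratio of Fosb was 3.22 (1.79 to 6.14), 0.0649 (0.0467 to 0.0881) and 2.36 (1.83 to 3.06). Over all libraries the log2 fold change of Fos was -0.29 (95% interval -1.86 to 1.27, adjusted p = 0.798, edgeR) and that of Fosb -1.35 (-4.16 to 1.47, adjusted p = 0.484). Without vehicle replicate 2 they were 0.96 (adjusted p = 0.129) and 0.95 (adjusted p = 0.573), and so above 0. With all 6 libraries kept, blocking by mouse also put Fos above 0 (0.17, adjusted p = 0.912, edgeR) and left Fosb at -0.21.

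**Figure D4:**
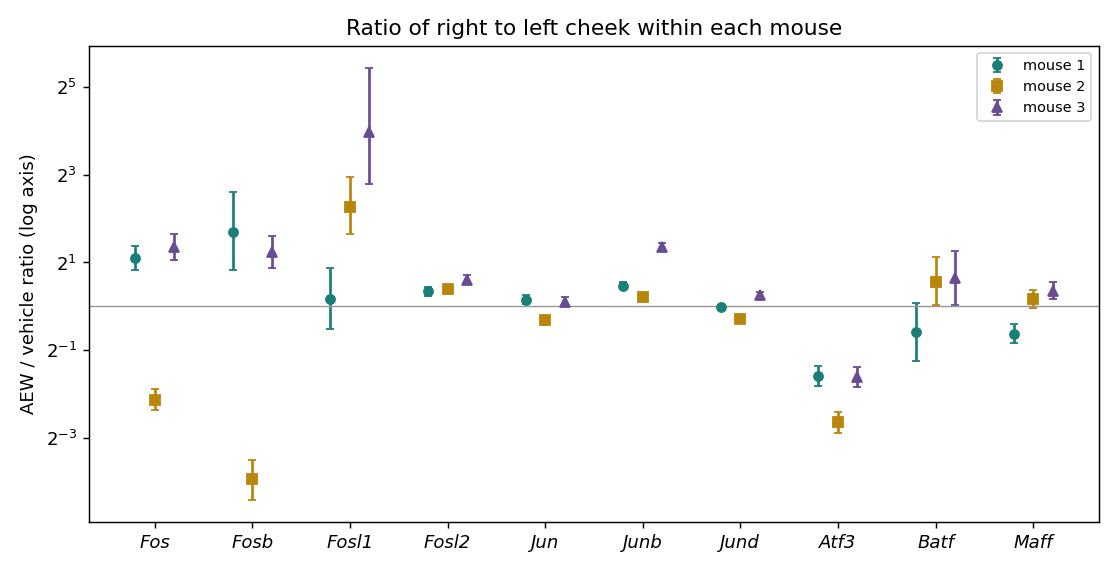
AEW to vehicle ratio of each member within each mouse (log axis), with exact binomial intervals that cover counting error only. Mouse 2 lies below 1 for Fos and Fosb, at 0.228 and 0.0649, where mice 1 and 3 lie above it, and all 3 mice lie below 1 for Atf3.

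The windows of Fos and Fosb are shown because these genes were high together in 1 library. The Fos window lies on chr12:85473640-85473939 of GRCm38.p6, plus strand, and that of Fosb on chr7:19309996-19310295, minus strand, with the core TGACG in capitals. The core begins 129 and 66 bases before the start of Fos and 60 bases before that of Fosb.
Fos: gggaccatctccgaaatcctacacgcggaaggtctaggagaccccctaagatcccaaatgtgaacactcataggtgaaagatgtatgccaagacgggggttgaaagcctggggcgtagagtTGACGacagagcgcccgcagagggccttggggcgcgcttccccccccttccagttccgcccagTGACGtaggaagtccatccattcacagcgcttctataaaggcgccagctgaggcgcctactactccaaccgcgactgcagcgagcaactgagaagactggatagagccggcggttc
Fosb: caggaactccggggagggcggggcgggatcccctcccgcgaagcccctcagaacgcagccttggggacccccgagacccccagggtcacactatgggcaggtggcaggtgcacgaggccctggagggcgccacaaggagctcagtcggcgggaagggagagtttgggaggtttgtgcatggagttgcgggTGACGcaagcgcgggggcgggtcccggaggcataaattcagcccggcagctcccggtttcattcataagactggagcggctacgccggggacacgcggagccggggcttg
None of the longer elements searched was found in either window, and the core occurs in 20.8% of all windows. Elements more than 250 bases before the start lie outside these windows and were not searched. The core was also found in windows of Junb, Atf3, Batf and Maff.

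Other immediate early genes were also high in the vehicle cheek of mouse 2. Of 30 tested genes of that list, 25 had their highest vehicle value there, where 36.5% of all tested genes did. Their summed level was 1710, 2245 and 1827 CPM in the vehicle libraries and 1760, 1985 and 2286 CPM in the AEW libraries of mice 1, 2 and 3. The same vehicle library was also the highest of the 3 for all 12 keratinocyte markers. The part of that shift in the levels of Fos and Fosb was not tested.

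**Figure D5:**
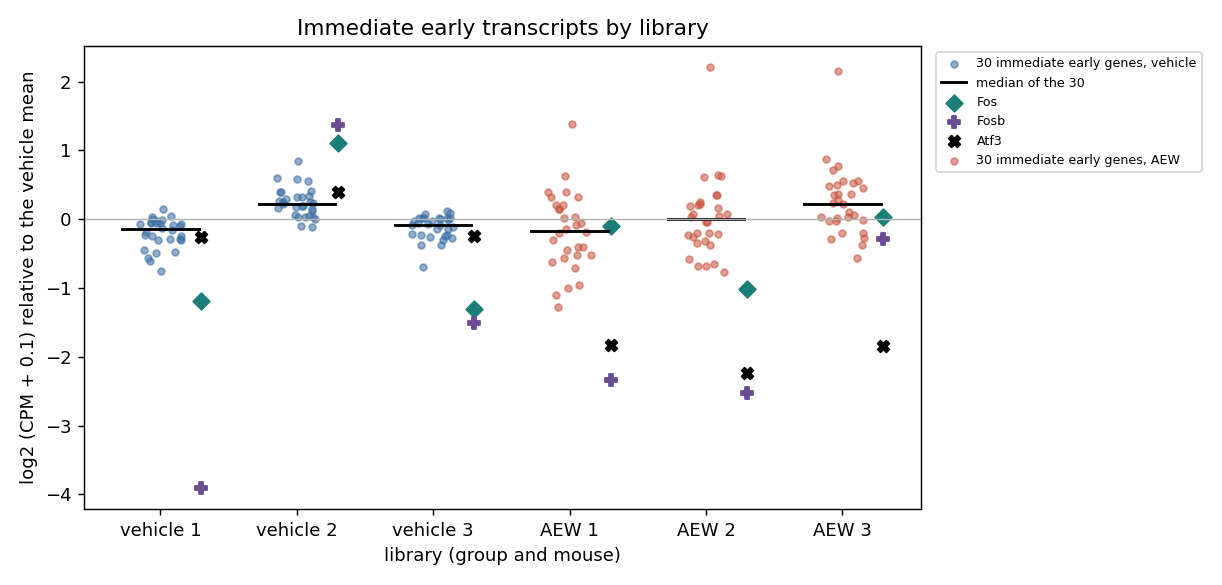
Levels of 30 other immediate early genes (dots, with their median as a bar) and of Fos, Fosb and Atf3 in each library, as log2 (CPM + 0.1) relative to the mean of the vehicle libraries. The vehicle library of mouse 2 stands above the other vehicle libraries, and Atf3 lies low in all 3 AEW libraries.

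3 of these 30 immediate early genes were higher in AEW skin and 1 was lower, 10% and 3.33%, beside 4.85% and 6.8% of all tested genes. Arc, an activity-regulated cytoskeletal gene, rose by 1.99 in log2 (SE 0.35, adjusted p = 0.0205, edgeR). Klf2, a zinc finger transcription factor of endothelial and other cells, fell, at -0.73 in log2 (SE 0.13, adjusted p = 0.0214), in libraries where 3 of 10 endothelial markers were also lower, whose part was not tested. Ier5 was 0.39 and Egr3 0.58 higher in log2 (adjusted p = 0.0415 and 0.0467), and blocking by mouse raised these p to 0.0779 and 0.108. Dropping the vehicle library of mouse 1, that of mouse 3 or the AEW library of mouse 2 left 0 genes of the list called in edgeR, where 3 or 4 were higher and 1 to 4 lower at an unadjusted p under 0.05, and 0 were called higher and 1 lower without AEW replicate 3 (3 and 3 unadjusted). Without vehicle replicate 2 the counts were 1 and 1. DESeq2 on all libraries, which fitted 31 genes of the list, called 3 higher and 1 lower, against 8.85% and 9.77% of all genes.

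Batf (gene 53314), a partner of Jun proteins best known from lymphocytes, and Maff (gene 17133), a small Maf protein without a transactivation domain, did not pass the test. Batf had estimated counts of 49, 48 and 37 in vehicle skin and 36, 73 and 62 in AEW skin, which overlap. Its log2 fold change was 0.27 with a 95% interval from -0.49 to 1.02 (adjusted p = 0.608, edgeR). T cell markers stood at a summed level of 46.3 to 54.5 CPM in vehicle skin and 38.3 to 49.9 CPM in AEW skin. Of 9 tested T cell markers 1 was higher and 1 lower, 11.1% each way, beside 4.85% and 6.8% of all tested genes. Both calls, Foxp3 and Cd3g, were lost when edgeR was blocked by mouse (adjusted p = 0.105 and 0.0508). Maff had estimated counts of 402, 368 and 368 in vehicle skin and 287, 428 and 507 in AEW skin, so that the AEW group held both ends of the range. Its log2 fold change was 0.015 with an interval from -0.48 to 0.51 (adjusted p = 0.971). Both genes were lower in the AEW cheek of mouse 1, with ratios of 0.669 and 0.650, and higher in those of mice 2 and 3, where the ratios lay between 1.13 and 1.56. Macrophage markers moved in the same directions. Of 10 tested, 9 were lower in the AEW cheek of mouse 1, and all 10 were higher in mouse 2 and in mouse 3. Of all tested genes 50.7%, 50.8% and 49.4% were lower in mice 1, 2 and 3. The part of macrophages in the levels of Batf and Maff was not tested.

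Of 31 other basic leucine zipper genes, 1 was higher and 3 were lower in AEW skin, and the counts were the same with the mouse as a block. Without the block these are 3.23% and 9.68% of the list, beside 4.85% and 6.8% of all tested genes. The 3 that fell, Dbp, Tef and Hlf, are the related clock-controlled factors of the PAR group. Dbp changed by -0.63, Tef by -0.53 and Hlf by -0.58 in log2 (adjusted p = 0.0178, 0.0272 and 0.0328). Dropping the vehicle library of mouse 1, that of mouse 3 or the AEW library of mouse 2 left 0 genes of the list called in edgeR, where 2 to 4 were higher and 3 lower at an unadjusted p under 0.05. The counts were 1 higher and 1 lower without vehicle replicate 2 and 2 and 3 without AEW replicate 1. DESeq2 on all libraries called 2 higher and 3 lower, against 8.85% and 9.77% of all genes. The median log2 fold change of the list was 0.032.

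Among 36 genes of the MAP kinase and serum response factor pathways that feed AP-1, 2 were higher and 2 were lower, 5.56% each way and near the 4.85% and 6.8% of all tested genes, and 0 and 1 were called with the mouse as a block in edgeR (3 and 4 at an unadjusted p under 0.05). Dusp10, a phosphatase of the stress kinases JNK and p38, fell, at means of 23.9 ± 1.43 CPM in vehicle and 12.8 ± 1.69 CPM in AEW skin (-0.90 in log2, SE 0.13, adjusted p = 0.0125). Dusp6, a phosphatase of ERK that is itself induced by ERK signalling, had a log2 fold change of 0.70 (adjusted p = 0.0255, and 0.0745 with the block). Spry2 (-0.42 in log2) and Rps6ka1 (0.35) passed at adjusted p = 0.0407 and 0.0498, which became 0.0892 and 0.0767 with the block. Dropping the vehicle library of mouse 1 or mouse 3 left 0 genes of the list called in edgeR, where 2 were higher and 4 lower at an unadjusted p under 0.05. The counts were 1 and 1 without vehicle replicate 2 or AEW replicate 2, and 0 and 1 without AEW replicate 3. The list's median log2 fold change was 0.040, and DESeq2 called 2 higher and 2 lower, against 8.85% and 9.77% of all genes.

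Of 28 tested genes described as AP-1 targets in skin, 11 were higher and 0 were lower in edgeR, with 16 higher and 0 lower at an unadjusted p under 0.05, and 7 and 0 were called with the mouse as a block. Calls without the block made up 39.3% and 0% of the list, beside 4.85% and 6.8% of all tested genes. Like the other lists, this list was chosen with earlier results of these data known, so its shares are a description and no test. The list's median log2 fold change was 0.80, beside 0.014 over all tested genes. Krt16, a keratin of hyperproliferative epidermis, had a log2 fold change of 4.79, Cxcl1, a neutrophil attractant, 2.42, and Flg, the filaggrin gene, 2.37, with adjusted p of 0.00478, 0.0121 and 0.0125. Genes of this list are controlled by many factors, and it includes keratinocyte genes, of whose 12 markers 4 were higher in AEW skin. Of 11 neutrophil markers, 4 passed the low-count filter (S100a8, S100a9, Csf3r and Cxcr2), and 3 of these were higher, with 1 higher under the mouse block. Ly6g, Mpo, Elane, Retnlg, Camp, Ngp and Mmp8 were too low to test. The 4 tested markers summed to 8.12 to 12.7 CPM in vehicle and 15.96 to 79.9 CPM in AEW skin. Their part in the levels of this list was not tested. Dropping 1 vehicle library left 1 gene higher (mouse 1 or mouse 3) or 4 (mouse 2), and dropping 1 AEW library left 14, 3 and 6 for mice 1, 2 and 3. At an unadjusted p under 0.05, 13 to 20 of the 28 were higher in these 6 fits. DESeq2, which fitted 30 genes of the list, called 15 higher and 0 lower, against 8.85% and 9.77% of all genes.

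Among 21 genes of the integrated stress response, a programme in which Atf3 is itself a target of Atf4, 3 were higher and 1 was lower, and 1 and 1 with the mouse as a block. Without the block these are 14.3% and 4.76% of the list, beside 4.85% and 6.8% of all tested genes. At an unadjusted p under 0.05 in edgeR, 9 were higher and 1 lower, where 14.8% and 16% of all genes were. The list's median log2 fold change was 0.30, beside 0.014 over all tested genes. Slc7a5, an amino acid transporter, rose by 1.29 in log2 (SE 0.16, adjusted p = 0.0104, edgeR), with means of 14.8 ± 0.85 CPM in vehicle and 36.1 ± 7.98 CPM in AEW skin. Vldlr, a lipoprotein receptor, fell with a log2 fold change of -0.86 (adjusted p = 0.0125). Asns and Aars, an amino acid synthetase and a tRNA synthetase, were 0.49 and 0.41 higher in log2 (adjusted p = 0.0329 and 0.0442, which became 0.0741 and 0.0883 with the block). In edgeR, 0 genes of the list were called higher without vehicle replicate 1 or vehicle replicate 3, where 6 were higher at an unadjusted p under 0.05, and 1 was called higher without vehicle replicate 2 or AEW replicate 2. DESeq2 on all libraries called 8 of the 21 higher and 1 lower, against 8.85% and 9.77% of all genes.

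Heat shock genes, which respond to protein damage, included 0 higher and 1 lower of 12 in edgeR, with 2 higher at an unadjusted p under 0.05 and 0 called higher in DESeq2. The edgeR calls are 0% and 8.33% of the list, beside 4.85% and 6.8% of all tested genes. DESeq2 called 8.85% of all genes higher. Hspb1, a small heat shock protein abundant in muscle and epidermis, fell, at means of 729 ± 21.1 CPM in vehicle and 412 ± 50.9 CPM in AEW skin (-0.82 in log2, SE 0.12, adjusted p = 0.0126). Dnajb1 (0.36 in log2) and Hsp90aa1 (0.39) did not pass (adjusted p = 0.102 and 0.112). Without vehicle replicate 1 or 3 Hspb1 was not called, at -0.85 and -0.81 in log2 (adjusted p = 0.0545 and 0.0713), in fits that called 148 and 117 genes lower in the whole table.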

How the data were processed

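Cheek skin RNA of 3 mice was profiled in 6 libraries, single-end and poly(A)-selected per the labels' protocols. Per the file headers, the authors' table holds estimated counts, TPM and FPKM for each library. Between 53.9% and 57.2% of genes in a library have a fractional estimated count, and these counts were deposited without visible scaling. The deposited TPM and FPKM are the authors' own values, and FPKM was not used. The submitters' processing notes name HISAT and build GRCm39, with counting tool, annotation and strand setting not given in the sources used here. Promoter windows come from RefSeq on another build and were matched by gene number only.

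Counts were rounded, filtered with filterByExpr at a minimum count of 10, scaled by TMM (factors 0.973 to 1.05) and tested with edgeR 4.0.16 (R 4.3.3) in a model of group alone, with Benjamini-Hochberg adjustment over 15109 genes at 0.05. Levels are TMM-scaled CPM. Alternatives used the mouse as a block, DESeq2 1.42.0, its size factors, no filter, limma 3.58.1 on log2(TPM + 1) and log2(TPM + 0.1), scaling without muscle genes, and each library or mouse left out. Replicates are separate mice, and every pair within a group differed by more than sampling noise (lowest chi-square per degree of freedom 19.75). Mouse numbers in the titles pair the cheeks by animal. Correlations of same-mouse deviations from group means were -0.244, -0.165 and -0.246, so the fit without the block can understate the spread of the difference. In simulated counts of 14959 genes for this comparison, the test recovered 27.9% of the genes altered 1.5 fold, 62.7% at 2 fold and 95.2% at 4 fold, with 5 of 125 calls false. The simulated libraries were independent, with spread set by expression level, no pairing by mouse and no library standing apart. Genes more variable than others of their level were not modelled, so these shares may be too favourable for the data. Intervals of counts cover counting error only.

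The members and lists were chosen with earlier results of these data known. Named genes are the 10 members, the 3 genes of smallest p in each list with all called genes where these were 5 or fewer, and the 3 genes most correlated with each called member among those whose mean log2 CPM reached 1, with no predicted-model symbol. 1 named gene of the lists is not reported here.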

Additional observations from a re-analysis of the deposited data

How the results depend on the processing

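The call of Atf3 (lower) held in 15 of 16 alternatives, with log2 fold changes from -2.12 to -1.59 over all of them, and Fosl2 (higher) kept its direction in all 16, from 0.37 to 0.54, but its call in 5, with adjusted p from 0.00683 to 0.407. Fosl1, Junb and Batf kept their direction throughout. With the mouse as a block, 300 genes were called higher and 588 lower against 733 and 1027 without it, and 0 members higher against 1; the block changed no other member's call. DESeq2 called 1364 genes and 3 members higher. With no low-count filter 0 members were higher (655 genes of the table were). Limma called 666 genes lower and 0 members higher on log2(TPM + 1), and 666 lower and 0 members higher on log2(TPM + 0.1). With mouse 1 left out and the block, 1922 genes were higher, 1588 lower and 2 members higher. With mouse 2 left out these counts were 112, 279 and 0, and with mouse 3 left out 0, 0 and 0, with 0 members lower (1 at an unadjusted p under 0.05, edgeR). Where 0 members were called higher, 0 (mouse 3 left out) to 4 were higher at an unadjusted p under 0.05, as were 5.21% to 16.8% of all genes in those fits. Over the 6 fits without 1 library, 23 to 1197 genes were higher (0.15% to 7.83% of those tested), 117 to 1041 lower (0.765% to 6.81%), and 0 to 2 members higher. The cause of each change was not tested.

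The direction of 5 members turned with the setting. For Fos (-0.29) the log2 fold change was 0.17 with the block, 0.13 and 0.16 in limma at the larger and smaller pseudocount, 1.22 with mouse 2 left out and the block, and -0.67 to 0.96 without 1 library. For Fosb (-1.35) it was 1.43 with mouse 2 left out and -2.46 to 0.95 without 1 library. For Jun (-0.019) it was 0.035 and 0.036 in limma, 0.13 with mouse 2 left out and -0.11 to 0.066 without 1 library. For Jund (-0.0042) it was 0.0028 with DESeq2 size factors, 0.0035 in DESeq2, 0.047 at either pseudocount in limma, 0.12 with mouse 2 left out and -0.088 to 0.097 without 1 library. For Maff (0.015) it was -0.025 with the block, -0.13 and -0.22 with mouse 2 or mouse 3 left out, and -0.18 to 0.22 without 1 library. The log2 difference of Junb to Jund, examined after the values were seen, stayed between 0.58 and 0.85 without 1 library. Of 448 values for 28 other named genes, 0 turned direction, 144 lost and 5 gained a call. With 3 libraries a group, small differences of the members may not be detectable.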
